A study of Mus musculus with 12 samples.

Results

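The genes described here encode ephrins, Eph receptors, semaphorins, plexins, neuropilins, netrins, Unc5 receptors, Slits, Robos and Flrt proteins, the cues and receptors that guide migrating cells and axons. They were chosen by symbol, as every gene whose name begins with one of these family stems and that reached a CPM, the count scaled to a common library size, of at least 1 in at least 3 libraries. Of 76 symbols with such a name, 54 met this rule and 22 did not, out of 13479 genes of the whole table that reached the same level. The sorted cells came from mouse skin 3 days after wounding, cut as a ring of 0.25 mm beside the wound edge, and each library came from a pool of 2 or 3 mice. Live cells positive for Epcam and integrin alpha6 were taken without CD45+, CD31+ and CD117+ cells, and were split by surface integrin alpha5. The 4 groups of 3 libraries were RORγt-deficient A5-positive cells, RORγt-deficient A5-negative cells, wild-type A5-positive cells and wild-type A5-negative cells, all of them from wounded skin. The labels name the deficient libraries GFP-KI, a knock-in of GFP into the locus of RORγt, which is the transcription factor of lymphocytes that make interleukin-17. The labels place A5-positive cells in the migrating tongue and A5-negative cells at the wound edge, and give no age, sex or breeding of the mice.

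Ephrins are bound to the cell surface and are read by Eph receptors on neighbouring cells, with signals running into both cells, and in epidermis this contact signalling is known for its part in keratinocyte adhesion, differentiation and spreading. Semaphorins act through plexins, the secreted class 3 members mostly with a neuropilin as the binding partner. Netrins are read by DCC, neogenin and Unc5 receptors, Slits by Robos, and Flrt proteins bind both Unc5 receptors and latrophilins.

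The libraries held 29293687 to 74563616 counts, so that 3 counts correspond to 0.0402 to 0.102 CPM, a limit that covers counting error only. Itga5, which encodes the sorted integrin, had 107, 122 and 137 CPM in RORγt-deficient A5-positive cells, against 54.0, 61.3 and 47.4 CPM in RORγt-deficient A5-negative cells. It had 85.1, 101 and 97.2 CPM in wild-type A5-positive cells, against 52.0, 42.2 and 46.3 CPM in wild-type A5-negative cells, so the levels followed the sort in both genotypes. The 10 keratinocyte markers summed to 35260 to 79490 CPM in every library. The 12 fibroblast markers summed to 10650 to 18110 CPM in RORγt-deficient A5-positive, 772 to 1860 CPM in RORγt-deficient A5-negative, 6639 to 9985 CPM in wild-type A5-positive and 1552 to 2237 CPM in wild-type A5-negative cells. Most of the A5-negative sums came from 1 marker, Postn, at 743 to 1332 CPM in RORγt-deficient and 1220 to 2051 CPM in wild-type A5-negative cells. Postn overlapped between the fractions, with 1270 to 2152 CPM in RORγt-deficient and 1624 to 2965 CPM in wild-type A5-positive cells. In bulk samples such as these, fewer cells of a type and less RNA per cell cannot be told apart.

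All 54 genes were tested, and 43 of them reached 1 CPM in all 12 libraries. The genes nearest to the threshold from above were Sema7a, Sema6b and Plxna4, with 1.21, 1.29 and 1.37 CPM in the third highest library of each. Nearest from below were Epha7, Ephb1, Ntn3 and Flrt1, with 0.980, 0.924, 0.871 and 0.862 CPM. The others under the rule were Efnb3, Epha3, Epha5, Epha6, Epha8, Epha10, Ntn5, Plxnb3, Robo3, Robo4, Sema3g, Sema5b, Unc5c, Unc5cl, Unc5d and the antisense transcripts Plxna4os1, Plxna4os2 and Plxna4os3. Unc50 met the rule by its name alone, since it encodes a Golgi protein and no netrin receptor.

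Within single families the level per exon length spanned a wide range, given here as CPM per kb of exon, averaged over the 12 libraries. Epha2, a receptor of ephrin-A1 in epidermis, was highest of all 54 genes with 106 CPM per kb, and Ephb6, an Eph receptor whose kinase is inactive, followed with 90.3 CPM per kb. Among the ephrins, Efna1, Efnb2 and Efnb1 stood at 53.8, 51.6 and 44.0 CPM per kb, and the lowest, Efna2, at 3.15 CPM per kb. Sema3c led the semaphorins with 44.4 CPM per kb, ahead of Sema3f with 29.3 CPM per kb. Plxnb2, a receptor of class 4 semaphorins, led the plexins with 53.8 CPM per kb, and Plxna4 was lowest of all 54 genes with 0.0687 CPM per kb. Flrt3, an adhesion protein that binds Unc5 receptors, reached 66.2 CPM per kb.

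The neuropilins, netrins, Slits, Robos and Unc5 receptors were lower per length. Nrp2 stood at 3.07 and Nrp1 at 0.833 CPM per kb, Unc5b at 3.40, Ntn4 at 3.13, Robo1 at 3.21 and Slit3 at 6.76 CPM per kb. The name-only member Unc50 stood at 19.0 CPM per kb, above the 2 true Unc5 receptors.

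**Figure D1:**
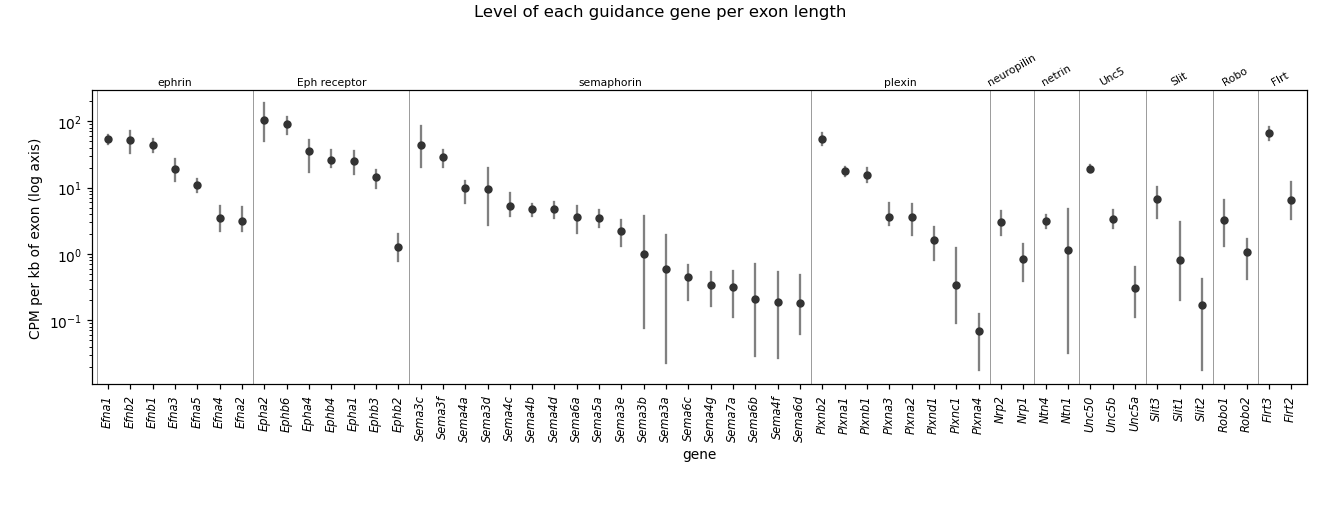
Mean level of each of the 54 genes over 12 libraries (points) with the lowest and highest library (grey lines), in CPM per kb of exon on a log axis, ordered within each family. Epha2 at 106 and Ephb6 at 90.3 CPM per kb are highest, and Sema3a, Sema3b, Ntn1 and Slit2 show long lines because the A5-positive and A5-negative libraries lie far apart.

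The comparison of A5-positive with A5-negative cells sets the migrating tongue against the wound edge behind it. In both genotypes the secreted cues Ntn1, Sema3a, Sema3b and Slit2 were higher in A5-positive cells, by 5.07-fold to 31.7-fold, and no ephrin or Eph receptor passed in edgeR's quasi-likelihood test without the block described below. DESeq2, run without the block as an alternative, called 10 genes in RORγt-deficient and 11 in wild-type mice, among them Efna3, Efnb2, Sema4a and Sema4d, lower in RORγt-deficient A5-positive cells, and Ephb4, higher in wild-type A5-positive cells. The share of all genes called by DESeq2 was not counted, so its counts do not bear on guidance genes as a set. In RORγt-deficient mice 6 of 54 genes passed an adjusted p of 0.05 in edgeR's quasi-likelihood test, 5 higher and 1 lower, or 11.1% of them against 5.52% of all genes tested. All genes tested were 16677, kept by a looser filter than the gene rule, which 13479 genes met. Here and below, the shares of all genes are therefore of a set filtered otherwise than the 54. In wild-type mice 5 of 54 genes passed, all higher, or 9.26% against 3.45% of all genes tested. Counted by direction over all genes tested, 4.56% were higher and 0.965% lower in RORγt-deficient A5-positive cells, and 3.12% were higher and 0.33% lower in wild-type A5-positive cells. The 4 secreted cues made up 4 of the 6 and 4 of the 5 genes. Ntn1, Sema3a, Sema3b and Slit2 reached 1 CPM in 6, 7, 8 and 8 libraries, all A5-positive libraries among them. They thus met the gene rule only through the cells in which they were higher, and their calls do not bear on guidance genes as a set.

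The libraries of each group carry the numbers 1 to 3, and libraries of the same number deviated together in all 4 groups, so that the number was also fitted as a block. With that block 18 of 54 genes passed in RORγt-deficient mice, 5 higher and 13 lower, where 17.6% of all genes passed, 10.1% higher and 7.54% lower. In wild-type mice 13 of 54 passed with the block, 7 higher and 6 lower, where 14.4% of all genes passed, 8.76% higher and 5.59% lower. The levels of the 2 fractions did not overlap for 21 genes in RORγt-deficient mice, 10 higher and 11 lower, where 14.3% of all genes lay apart and higher and 11.3% apart and lower. In wild-type mice they did not overlap for 17 genes, 10 higher and 7 lower, beside 15.9% and 9.12% of all genes. In all this was 38.9% of the genes against 25.6% of all genes in RORγt-deficient mice, and 31.5% against 25% in wild-type mice. Ntn1, Sema3a, Sema3b and Slit2 are among the higher genes in each of these counts, with and without overlap considered. Unc5a, also apart and higher in both genotypes, reached 1 CPM in 8 libraries. The counts of higher genes and the totals thus carry the limit of the gene rule given above and do not bear on guidance genes as a set. The median log2 fold change of the 54 genes was -0.10 in RORγt-deficient mice, beside -0.00 for all genes, and 0.00 in wild-type mice, beside 0.03 for all genes.

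**Figure D2:**
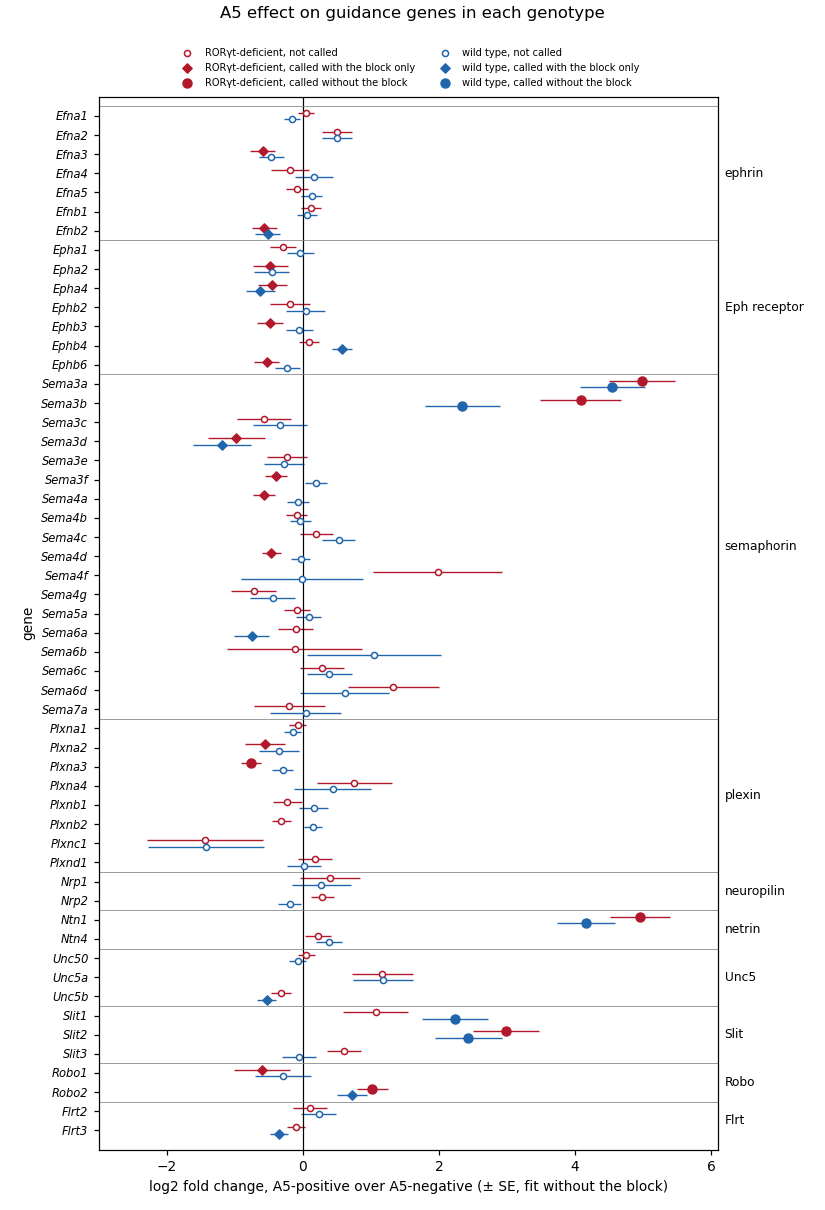
Log2 fold change of A5-positive over A5-negative cells with its standard error for each gene, in RORγt-deficient (red) and wild-type mice (blue). Large filled points passed in edgeR's test without the block, diamonds in that test with the block only, and open points did not pass. Ntn1 and Sema3a lie above 4 in both genotypes, while most other genes lie between -1 and 1.

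Ntn1, which encodes the secreted guidance cue netrin-1 (chromosome 11, 68209364 to 68400823, GRCm38), had 29.8, 15.5 and 13.1 CPM in RORγt-deficient A5-positive cells, against 0.611, 0.601 and 0.667 CPM in RORγt-deficient A5-negative cells. It had 7.37, 10.03 and 8.31 CPM in wild-type A5-positive cells, against 0.735, 0.452 and 0.200 CPM in wild-type A5-negative cells. Every A5-positive library lay far above every A5-negative library, with a log2 fold change of 4.96 ± 0.44 (SE) in RORγt-deficient mice (edgeR quasi-likelihood, adjusted p = 5.25e-05) and 4.16 ± 0.43 in wild-type mice (adjusted p = 0.000324).

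Sema3a, a secreted semaphorin known to repel axons (chromosome 5, 13125414 to 13602565), had 26.4, 17.9 and 21.1 CPM in RORγt-deficient A5-positive cells, against 0.326, 0.802 and 1.02 CPM in RORγt-deficient A5-negative cells. It had 5.16, 10.48 and 14.3 CPM in wild-type A5-positive cells, against 0.556, 0.367 and 0.314 CPM in wild-type A5-negative cells. The fractions did not overlap in either genotype, and the log2 fold change was 4.98 ± 0.48 (edgeR quasi-likelihood, adjusted p = 0.000100) in RORγt-deficient and 4.55 ± 0.48 (adjusted p = 0.000399) in wild-type mice. The calls of Ntn1 and Sema3a held in both genotypes when any single library of the 6 compared was left out.

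Sema3b, another secreted class 3 semaphorin (chromosome 9, 107597674 to 107609229), had 17.8, 7.09 and 10.4 CPM in RORγt-deficient A5-positive cells, against 0.367, 0.659 and 1.11 CPM in RORγt-deficient A5-negative cells. It had 4.41, 5.76 and 6.56 CPM in wild-type A5-positive cells, against 1.97, 0.396 and 0.857 CPM in wild-type A5-negative cells. The fractions were apart in both genotypes, and the A5-negative library 1 of wild-type mice was the nearest to the A5-positive ones. The log2 fold change was 4.08 ± 0.59 in RORγt-deficient mice (edgeR quasi-likelihood, adjusted p = 0.00168) and 2.34 ± 0.55 in wild-type mice (adjusted p = 0.0392). In wild-type mice the call was lost on leaving out A5-positive library 1, 2 or 3, with adjusted p of 0.0825, 0.0855 and 0.0782, or A5-negative library 2 or 3, with adjusted p of 0.0979 and 0.178.

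Slit2, a secreted ligand of Robo receptors (chromosome 5, 47983138 to 48307733), had 8.63, 10.7 and 9.05 CPM in RORγt-deficient A5-positive cells, against 1.94, 0.888 and 0.667 CPM in RORγt-deficient A5-negative cells. It had 5.58, 6.004 and 4.58 CPM in wild-type A5-positive cells, against 0.448, 1.81 and 0.771 CPM in wild-type A5-negative cells. Again no library of one fraction reached those of the other. The log2 fold change was 2.98 ± 0.49 in RORγt-deficient mice (edgeR quasi-likelihood, adjusted p = 0.00361) and 2.43 ± 0.49 in wild-type mice (adjusted p = 0.0198), and the wild-type call was lost on leaving out A5-positive library 1 or 2 (adjusted p = 0.0568 and 0.0539) or A5-negative library 3 (adjusted p = 0.114).

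Slit1, a Slit best known from the nervous system (chromosome 19, 41600257 to 41743665), had 17.8, 11.8 and 3.74 CPM in wild-type A5-positive cells, against 1.52, 3.31 and 2.28 CPM in wild-type A5-negative cells. The A5-positive library 3 lay close to the A5-negative libraries and the other A5-positive libraries well above them. The log2 fold change was 2.24 ± 0.48 (edgeR quasi-likelihood, adjusted p = 0.0269). It did not pass when A5-positive library 1 or 2 was left out (adjusted p = 0.123 and 0.0684), nor when A5-negative library 1, 2 or 3 was (adjusted p = 0.0885, 0.0518 and 0.128). In RORγt-deficient mice Slit1 had 3.78, 3.62 and 3.90 CPM in A5-positive against 2.25, 1.92 and 1.17 CPM in A5-negative cells and did not pass (log2 fold change 1.07, adjusted p = 0.216 in edgeR's quasi-likelihood test).

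Robo2, a Slit receptor (chromosome 16, 73891839 to 74411825), had 19.3, 15.7 and 26.4 CPM in RORγt-deficient A5-positive cells, against 11.2, 7.02 and 12.2 CPM in RORγt-deficient A5-negative cells. It had 28.3, 25.3 and 25.2 CPM in wild-type A5-positive cells, against 15.1, 18.1 and 14.7 CPM in wild-type A5-negative cells, with no overlap in either genotype. The log2 fold change was 1.02 ± 0.23 in RORγt-deficient mice (edgeR quasi-likelihood, adjusted p = 0.0221). This call did not hold when A5-positive library 1 or 3 was left out (adjusted p = 0.0613 and 0.108), nor when A5-negative library 1 or 2 was (adjusted p = 0.0591 and 0.0816). In wild-type mice the log2 fold change was 0.72 ± 0.23 with adjusted p of 0.106 without the block and 0.0424 with it in edgeR, and of 0.0479 in DESeq2 without it.

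Fibroblast markers moved in the same direction as these secreted cues. Of the 12 markers, 9 were higher in A5-positive cells of RORγt-deficient mice and 9 in those of wild-type mice, with a median log2 fold change over the list of 5.54 in RORγt-deficient and 4.84 in wild-type mice, and none of the 12 was at 0 in all libraries. Pdgfra, which encodes a receptor of fibroblasts, had 49.5, 33.4 and 42.2 CPM in RORγt-deficient A5-positive against 1.59, 1.12 and 1.11 CPM in RORγt-deficient A5-negative cells, and 13.2, 19.9 and 25.6 CPM in wild-type A5-positive against 0.860, 0.735 and 0.485 CPM in wild-type A5-negative cells. The part of fibroblast RNA in the levels of Ntn1, Sema3a, Sema3b and Slit2 was not tested. The same 4 genes together reached 82.6, 51.2 and 53.6 CPM in RORγt-deficient A5-positive cells and 22.5, 32.3 and 33.7 CPM in wild-type A5-positive cells.

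**Figure D3:**
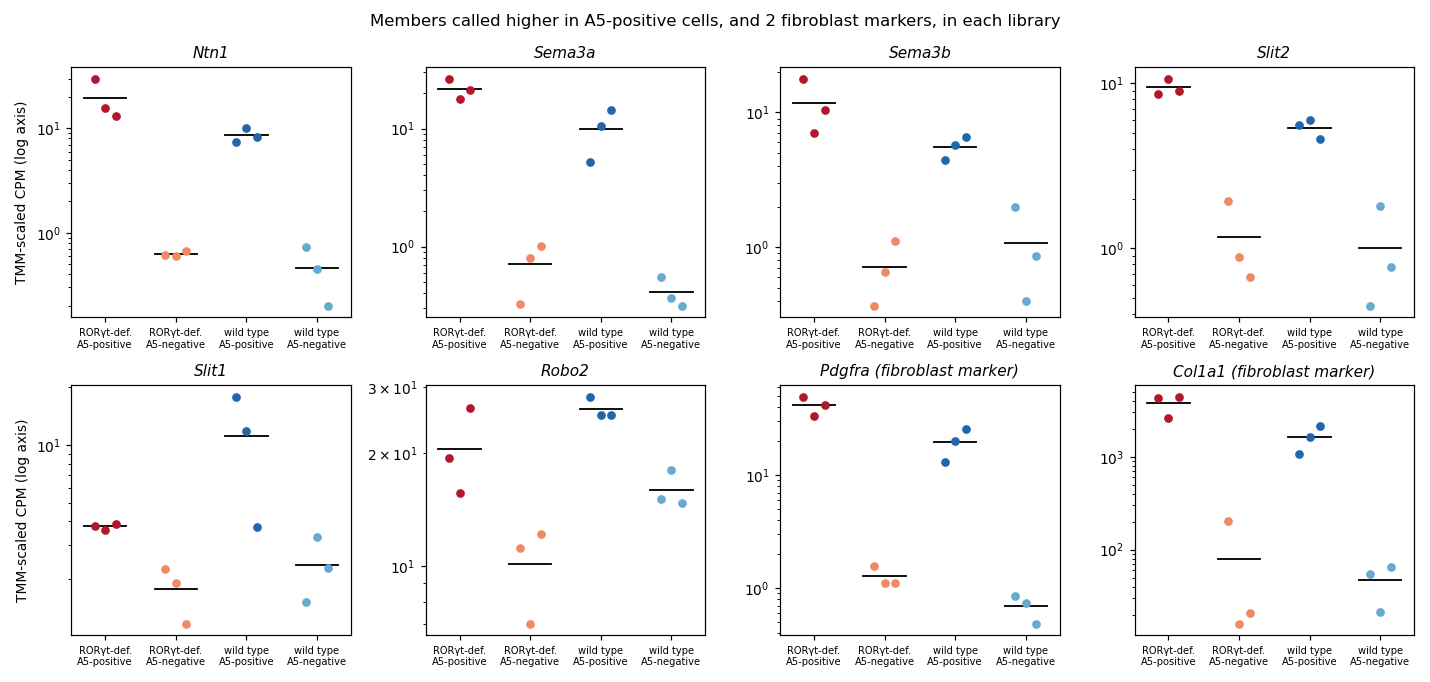
TMM-scaled CPM on a log axis in each of the 3 libraries of the 4 groups (points, in order of library number) with the group mean (black line), for Ntn1, Sema3a, Sema3b, Slit2, Slit1 and Robo2 and for the fibroblast markers Pdgfra and Col1a1. Ntn1 lies between 7.37 and 29.8 CPM in all A5-positive libraries and at 0.735 CPM or less in all A5-negative libraries, and Pdgfra shows the same split.

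The sequence before the RefSeq start is shown for Sema3a and Slit2, which were higher in A5-positive cells of both genotypes, and for Efnb2 and Epha4, which were lower there in both genotypes with the block. Each run is the 250 bases before the start on the strand of the gene (RefSeq, build GRCm38.p6), and capitals mark matches to a motif. The windows are chr5:13396534-13396783 for Sema3a and chr5:47982905-47983154 for Slit2, on the plus strand, and chr8:8661243-8661492 for Efnb2 and chr1:77515089-77515338 for Epha4, on the minus strand. The searched letters were the hypoxia core ACGTG, which reads CACGT on the other strand, the AP-1 site TGANTCA, the GC box GGGCGG, which reads CCGCCC on the other strand, and the TATA box TATAAA, which reads TTTATA there, with no overlapping matches in these 4 windows.
Sema3a: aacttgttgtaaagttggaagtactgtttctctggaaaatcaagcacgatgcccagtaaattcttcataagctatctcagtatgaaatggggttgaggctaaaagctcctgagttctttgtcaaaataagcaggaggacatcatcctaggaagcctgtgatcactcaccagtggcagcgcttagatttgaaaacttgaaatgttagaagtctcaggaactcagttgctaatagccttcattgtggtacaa
Slit2: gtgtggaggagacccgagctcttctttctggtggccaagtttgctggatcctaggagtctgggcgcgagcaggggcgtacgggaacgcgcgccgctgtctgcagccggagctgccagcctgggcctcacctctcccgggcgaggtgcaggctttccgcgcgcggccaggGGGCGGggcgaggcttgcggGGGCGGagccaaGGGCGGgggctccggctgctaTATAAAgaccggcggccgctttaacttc
Efnb2: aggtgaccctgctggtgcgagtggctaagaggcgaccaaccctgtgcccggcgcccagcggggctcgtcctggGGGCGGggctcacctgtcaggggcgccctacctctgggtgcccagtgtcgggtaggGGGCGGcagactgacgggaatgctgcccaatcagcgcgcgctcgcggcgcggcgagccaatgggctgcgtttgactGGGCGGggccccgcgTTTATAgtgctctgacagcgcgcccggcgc
Epha4: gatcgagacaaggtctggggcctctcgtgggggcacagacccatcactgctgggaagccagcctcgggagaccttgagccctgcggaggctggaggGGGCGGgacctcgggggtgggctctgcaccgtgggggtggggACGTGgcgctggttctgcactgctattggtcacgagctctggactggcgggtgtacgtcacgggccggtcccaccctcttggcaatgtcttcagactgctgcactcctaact

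The Sema3a window lies inside the longer GENCODE M21 span of the gene and holds none of the 4 motifs at 40.8% GC. The Slit2 window holds 3 GC boxes and a TATA box at 69.6% GC and runs into the GENCODE start of the gene. The Efnb2 window, which ends where the gene begins, holds 3 GC boxes and a TATA box on the other strand at 72% GC, and the Epha4 window, likewise next to the gene, holds 1 hypoxia core and 1 GC box at 66% GC. Such windows were found for 47 of the 54 genes. The GC box was in 36 of these (76.6%) beside 32.7% of all 32851 windows in the table, the hypoxia core in 10 (21.3%) beside 16.6%, the AP-1 site in 2 (4.26%) beside 6.75% and the TATA box in 2 (4.26%) beside 12.4%. The 47 were 1 window a gene, of genes that met the CPM rule. The 32851 were every window of the table, without regard to level, so the 2 shares are of unlike sets. A match describes the letters in the window and no binding.

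Of the genes lower in A5-positive cells, Plxna3, a plexin that works with neuropilins (chromosome X, 74329066 to 74344689), was the only member to pass in edgeR's quasi-likelihood test without the block. It had 22.2, 26.4 and 21.2 CPM in RORγt-deficient A5-positive cells, against 45.5, 36.6 and 36.7 CPM in RORγt-deficient A5-negative cells, with no overlap. The log2 fold change was -0.77 ± 0.15 (edgeR quasi-likelihood, adjusted p = 0.0102), and the adjusted p was 0.0582 when A5-positive library 3 was left out. In wild-type mice Plxna3 had 24.6, 22.7 and 22.2 CPM in A5-positive against 26.6, 33.3 and 25.7 CPM in A5-negative cells, a log2 fold change of -0.30 that did not pass (adjusted p = 0.275).

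With the block, the ephrins Efnb2 and Efna3 and the receptors Epha2, Epha4, Ephb3 and Ephb6 were lower in A5-positive cells of RORγt-deficient mice. Efnb2, the transmembrane ligand of EphB receptors and EphA4 (chromosome 8, 8617434 to 8661242), had 281, 297 and 335 CPM in A5-positive against 473, 401 and 481 CPM in A5-negative cells there, with no overlap. In wild-type mice it had 230, 238 and 346 CPM in A5-positive against 327, 372 and 467 CPM in A5-negative cells, where the highest A5-positive library exceeded the lowest A5-negative one while each number was lower in A5-positive cells. With the block its log2 fold change was -0.58 ± 0.12 in RORγt-deficient mice (edgeR quasi-likelihood, adjusted p = 0.00854, 0.0981 without the block) and -0.53 ± 0.12 in wild-type mice (adjusted p = 0.0169, 0.141 without it). This was lost in RORγt-deficient mice when A5-positive library 3 was left out (adjusted p = 0.0558), and in wild-type mice without A5-positive library 1 or 2 (adjusted p = 0.0830 and 0.0810) or A5-negative library 2 or 3 (adjusted p = 0.0571 and 0.0897).

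Epha4, a receptor of ephrins of both classes (chromosome 1, 77367185 to 77515088), had 211, 338 and 300 CPM in RORγt-deficient A5-positive cells, against 369, 412 and 380 CPM in RORγt-deficient A5-negative cells. It had 139, 219 and 226 CPM in wild-type A5-positive cells, against 249, 312 and 340 CPM in wild-type A5-negative cells. The fractions did not overlap in either genotype. With the block the log2 fold change was -0.49 ± 0.13 in RORγt-deficient mice (edgeR quasi-likelihood, adjusted p = 0.0253, 0.237 without the block) and -0.64 ± 0.13 in wild-type mice (adjusted p = 0.00992, 0.130 without it). The call was lost in RORγt-deficient mice without A5-positive library 1 or 3 (adjusted p = 0.111 and 0.102) or A5-negative library 1 (adjusted p = 0.0934), and in wild-type mice without A5-positive library 1 (adjusted p = 0.0558) or A5-negative library 3 (adjusted p = 0.0658).

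Epha2 (chromosome 4, 141301240 to 141329384) had 449, 648 and 409 CPM in RORγt-deficient A5-positive cells, against 675, 867 and 559 CPM in RORγt-deficient A5-negative cells. It had 233, 388 and 354 CPM in wild-type A5-positive cells, against 335, 549 and 456 CPM in wild-type A5-negative cells. Within each library number it was lower in A5-positive cells, although the groups overlapped. With the block it passed in RORγt-deficient mice (log2 fold change -0.49 ± 0.15, adjusted p = 0.0490 in edgeR's quasi-likelihood test, 0.289 without the block) and not in wild-type mice (-0.46 ± 0.15, adjusted p = 0.0696). The call held without A5-negative library 3 and ended without any of the other 5 RORγt-deficient libraries (adjusted p = 0.0653 to 0.207). The other receptors called with the block in RORγt-deficient mice were Ephb3, at 80.8 ± 17.3 CPM in A5-positive against 113 ± 10.8 CPM in A5-negative cells (SD, n = 3), and Ephb6, at 269 ± 24.6 CPM in A5-positive against 389 ± 21.7 CPM in A5-negative cells. Efna3 stood at 33.9 ± 3.72 CPM in A5-positive against 51.1 ± 6.503 CPM in A5-negative cells of these mice.

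Among semaphorins, Sema3d, a secreted class 3 member (chromosome 5, 12383385 to 12588948), had 55.4, 123 and 42.6 CPM in RORγt-deficient A5-positive cells, against 171, 156 and 108 CPM in RORγt-deficient A5-negative cells. It had 23.2, 52.9 and 25.3 CPM in wild-type A5-positive cells, against 57.1, 108 and 66.0 CPM in wild-type A5-negative cells. Each library number was lower in A5-positive cells, with overlap between groups in RORγt-deficient mice only. With the block the log2 fold change was -1.14 ± 0.23 in RORγt-deficient mice (edgeR quasi-likelihood, adjusted p = 0.00852, 0.199 without the block) and -1.24 ± 0.23 in wild-type mice (adjusted p = 0.00803, 0.143 without it). In RORγt-deficient mice it was lost without A5-positive library 3 (adjusted p = 0.0556) and in wild-type mice without A5-negative library 3 (adjusted p = 0.0533). The secreted class 3 semaphorins thus moved in both directions, Sema3a and Sema3b higher and Sema3d lower in A5-positive cells.

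Of the membrane-bound semaphorins, Sema4a had 45.02, 31.5 and 44.6 CPM in RORγt-deficient A5-positive against 67.3, 50 and 62.8 CPM in RORγt-deficient A5-negative cells, with no overlap. Its log2 fold change with the block was -0.58 ± 0.11 (edgeR quasi-likelihood, adjusted p = 0.00724, 0.0663 without the block). This call held when any single library of the 6 compared was left out. Sema6a had 18.1, 20.6 and 28.7 CPM in wild-type A5-positive against 35.4, 37.2 and 41.0 CPM in wild-type A5-negative cells, again with no overlap. Its log2 fold change with the block was -0.79 ± 0.14 (adjusted p = 0.00652, 0.131 without it), and it held in the same way. In RORγt-deficient mice Sema6a was at 29.2, 23.9 and 44.6 CPM in A5-positive against 29.3, 29.4 and 46.7 CPM in A5-negative cells and did not pass.

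The remaining genes called by edgeR with the block and not without it were, in RORγt-deficient mice, Sema4d at -0.47 ± 0.13, Sema3f at -0.41 ± 0.12, Plxna2 at -0.60 ± 0.14 and Robo1 at -0.65 ± 0.20 on the log2 scale, with adjusted p of 0.0297, 0.0457, 0.0158 and 0.0457 in edgeR's quasi-likelihood test. In wild-type mice they were Ephb4, higher at 0.57 ± 0.12 (adjusted p = 0.0150), and Unc5b and Flrt3, lower at -0.54 ± 0.12 and -0.35 ± 0.10 (adjusted p = 0.0178 and 0.0456). DESeq2 without the block also called Sema4d in RORγt-deficient mice (adjusted p = 0.0166) and Ephb4, Unc5b and Flrt3 in wild-type mice (adjusted p = 0.0154, 0.00819 and 0.0358). Exons of Ephb4 overlap those of Zan, and exons of Efna3 those of Gm15998, on the opposite strand. As the strand setting of the counting is not given, reads of these overlaps cannot be told apart. Unc5b, a netrin receptor, had 15.5, 18.04 and 16.1 CPM in wild-type A5-positive against 24.9, 25.7 and 21.4 CPM in wild-type A5-negative cells. Calls with the block were often lost when a single library was left out, and the share of all genes passing in those fits was not counted. In RORγt-deficient mice 11, 17 and 7 genes passed with the block without A5-positive library 1, 2 and 3, and 11, 17 and 13 without A5-negative library 1, 2 and 3. In wild-type mice 6, 6 and 14 passed without A5-positive library 1, 2 and 3, and 8, 10 and 6 without A5-negative library 1, 2 and 3.

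Efna1, Efnb1, Plxnb2 and Nrp1 did not pass between the fractions in either genotype. Efna1, the ephrin-A1 ligand of EphA2, averaged 96.4 ± 2.97 CPM in RORγt-deficient A5-positive against 93.5 ± 11.68 CPM in RORγt-deficient A5-negative cells, and 96.3 ± 7.02 CPM in wild-type A5-positive against 108 ± 5.88 CPM in wild-type A5-negative cells (SD, n = 3). Efnb1, the ephrin-B1 ligand, averaged 148 ± 32.6 CPM in RORγt-deficient A5-positive against 137 ± 7.92 CPM in RORγt-deficient A5-negative cells, and 165 ± 5.35 CPM in wild-type A5-positive against 158 ± 9.21 CPM in wild-type A5-negative cells. Plxnb2 averaged 341 ± 3.78 CPM in RORγt-deficient A5-positive against 425 ± 39.9 CPM in RORγt-deficient A5-negative cells, and 470 ± 53.4 CPM in wild-type A5-positive against 425 ± 56.2 CPM in wild-type A5-negative cells. Its log2 fold change was -0.32 ± 0.14 (edgeR quasi-likelihood, adjusted p = 0.199) in RORγt-deficient and 0.14 ± 0.14 (adjusted p = 0.564) in wild-type mice. Nrp1, the neuropilin that binds Sema3a, had log2 fold changes of 0.39 ± 0.44 in RORγt-deficient and 0.27 ± 0.44 in wild-type mice (adjusted p = 0.621 and 0.746). Ephb4 in RORγt-deficient mice and Sema4d in wild-type mice, each called with the block in the other genotype, stood at 0.09 ± 0.15 and -0.03 ± 0.14 (adjusted p = 0.754 and 0.907).

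**Figure D4:**
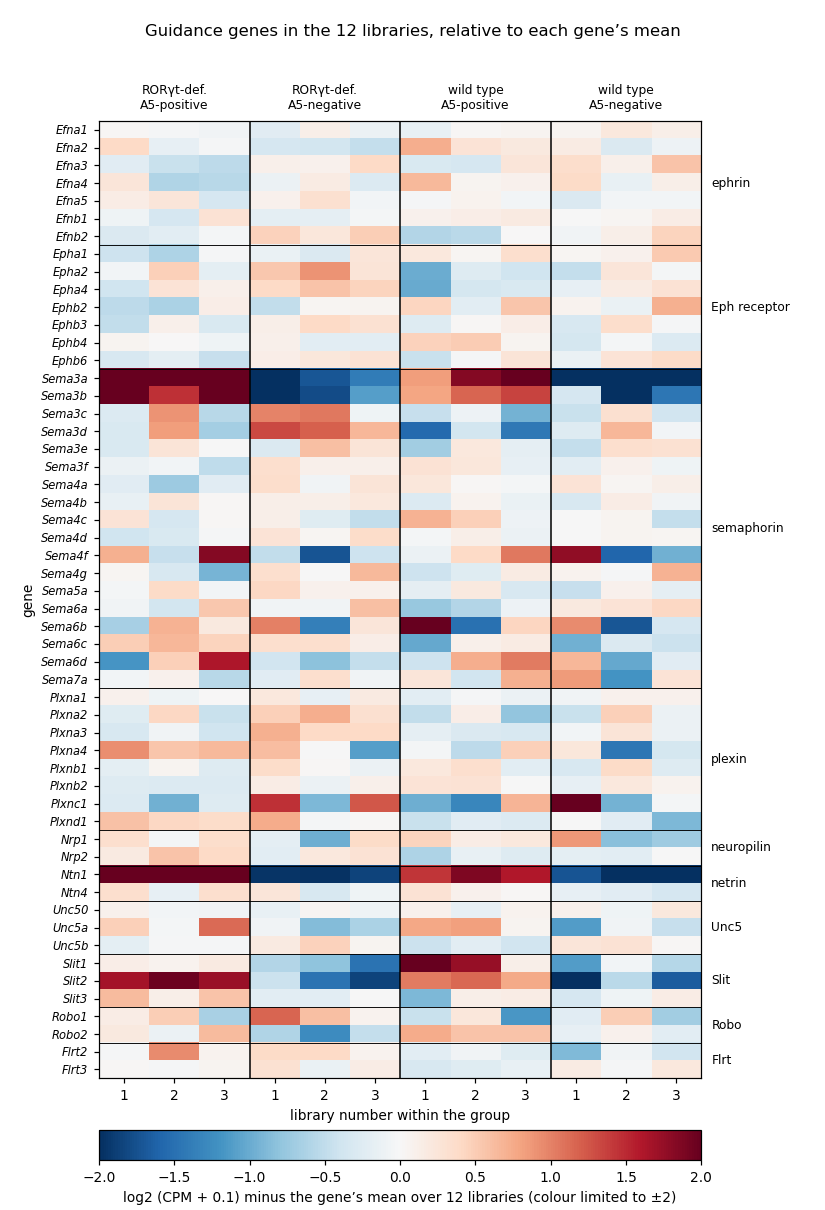
Each of the 54 genes in each of the 12 libraries, as log2 of CPM plus 0.1 minus the mean of the gene over all libraries, with colour limited to 2 on either side. Ntn1, Sema3a, Sema3b and Slit2 form the red and blue blocks that follow integrin alpha5, and Epha2, Plxna2 and Sema3c are highest in library 2 of every group.

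The genotype comparison asked what RORγt deficiency changes within each fraction. Among A5-positive cells, Nrp2, Sema3d, Epha4 and Epha2 were higher and Epha1 and Sema4a lower in RORγt-deficient mice in edgeR's test with the block, and DESeq2 without the block called Nrp2 as well. Without the block 0 of 54 genes passed in edgeR's quasi-likelihood test, beside 0.006% of all genes tested, with 15 genes at an unadjusted p under 0.05, or 27.8% beside 14.97% of all genes. DESeq2 called 4 genes, Nrp2 and Ntn1 higher and Plxnb2 and Slit1 lower in RORγt-deficient mice. The share of all genes called by DESeq2 was not counted here either. With the block 6 genes passed, or 11.1% beside 4.02% of all genes tested, and by direction 4 were higher and 2 lower, beside 2.26% and 1.76% of all genes. The genotypes did not overlap for 16 genes, 12 higher and 4 lower in RORγt-deficient mice, beside 9.04% and 9.01% of all genes, or in all 29.6% beside 18.1%. The median log2 fold change of the 54 genes was 0.05, beside 0.00 for all genes.

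Nrp2, a neuropilin that binds class 3 semaphorins (chromosome 1, 62703285 to 62818695), had 40.0, 52.5 and 46.9 CPM in RORγt-deficient A5-positive cells, against 23.1, 32.0 and 29.7 CPM in wild-type A5-positive cells. All RORγt-deficient libraries lay above all wild-type libraries, and the log2 fold change with the block was 0.72 ± 0.12 (edgeR quasi-likelihood, adjusted p = 0.0249, 0.178 without the block, and 0.0128 in DESeq2 without it). Sema3d with 55.4, 123 and 42.6 CPM in RORγt-deficient against 23.2, 52.9 and 25.3 CPM in wild-type A5-positive cells, and Epha4 with 211, 338 and 300 CPM in RORγt-deficient against 139, 219 and 226 CPM in wild-type A5-positive cells, were higher within each library number while the groups overlapped. Their log2 fold changes with the block were 1.08 ± 0.23 and 0.54 ± 0.13 (adjusted p = 0.0392 and 0.0430, against 0.261 and 0.281 without it). Epha2, with 449, 648 and 409 CPM in RORγt-deficient against 233, 388 and 354 CPM in wild-type A5-positive cells, stood at 0.63 ± 0.15 with the block (adjusted p = 0.0489, 0.295 without it), with no overlap.

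Epha1, another EphA receptor, had 71.9, 62.8 and 94.0 CPM in RORγt-deficient A5-positive cells, against 111, 98.2 and 121 CPM in wild-type A5-positive cells, with no overlap and a log2 fold change with the block of -0.55 ± 0.10 (edgeR quasi-likelihood, adjusted p = 0.0327, 0.252 without the block). Exons of Epha1 overlap those of Zyx on the opposite strand, which stood at 229 to 358 CPM, and as the strand setting of the counting is not given, reads of the overlap cannot be told apart. Sema4a had 45.02, 31.5 and 44.6 CPM in RORγt-deficient against 61.3, 53.6 and 51.2 CPM in wild-type A5-positive cells, with no overlap and a log2 fold change with the block of -0.47 ± 0.11 (adjusted p = 0.0464, 0.246 without it). With the block, 0 of 54 genes passed without RORγt-deficient library 1, 2 or 3 or without wild-type library 1 or 2. Without wild-type library 3, 6 passed, where Sema3d was lost (adjusted p = 0.0521) and Slit1 was called. The log2 fold changes kept their signs in these fits. They were 0.68 to 0.79 for Nrp2, 0.86 to 1.24 for Sema3d, 0.44 to 0.66 for Epha4 and 0.49 to 0.82 for Epha2. Epha1 stood at -0.60 to -0.48 and Sema4a at -0.56 to -0.35. The share of all genes passing in these fits was not counted.

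Ntn1 and Sema3a did not pass between the genotypes in edgeR's test, although Ntn1 passed in DESeq2 (adjusted p = 0.0356). They averaged 19.5 ± 9.04 and 21.8 ± 4.28 CPM in RORγt-deficient against 8.57 ± 1.35 and 9.97 ± 4.57 CPM in wild-type A5-positive cells (SD, n = 3), with log2 fold changes of 1.19 ± 0.36 and 1.13 ± 0.40 (edgeR quasi-likelihood, adjusted p = 0.207 and 0.238, 0.0675 and 0.0837 with the block). Slit1 stood the other way, at 3.77 ± 0.137 CPM in RORγt-deficient against 11.1 ± 7.07 CPM in wild-type A5-positive cells, with a log2 fold change of -1.56 ± 0.47 and overlapping groups (adjusted p = 0.207 in edgeR, 0.0839 with the block, and 0.0387 in DESeq2). The fibroblast markers had a median log2 fold change of 1.12 in the same comparison, and their part in the levels of Ntn1 and Sema3a was not tested. Plxnb2 stood at 341 ± 3.78 CPM in RORγt-deficient against 470 ± 53.4 CPM in wild-type A5-positive cells, with no overlap and a log2 fold change of -0.46 ± 0.14 (adjusted p = 0.202 in edgeR, 0.0653 with the block, and 0.0461 in DESeq2). Ephb4 was at 120 ± 5.78 CPM in RORγt-deficient against 154 ± 24.7 CPM in wild-type A5-positive cells (log2 fold change -0.36 ± 0.15, adjusted p = 0.293). Efna1, Efnb1, Nrp1 and Sema4d stood at 0.00 ± 0.12, -0.15 ± 0.14, -0.04 ± 0.43 and -0.23 ± 0.14 on the log2 scale, with adjusted p of 0.997, 0.636, 0.973 and 0.432.

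**Figure D5:**
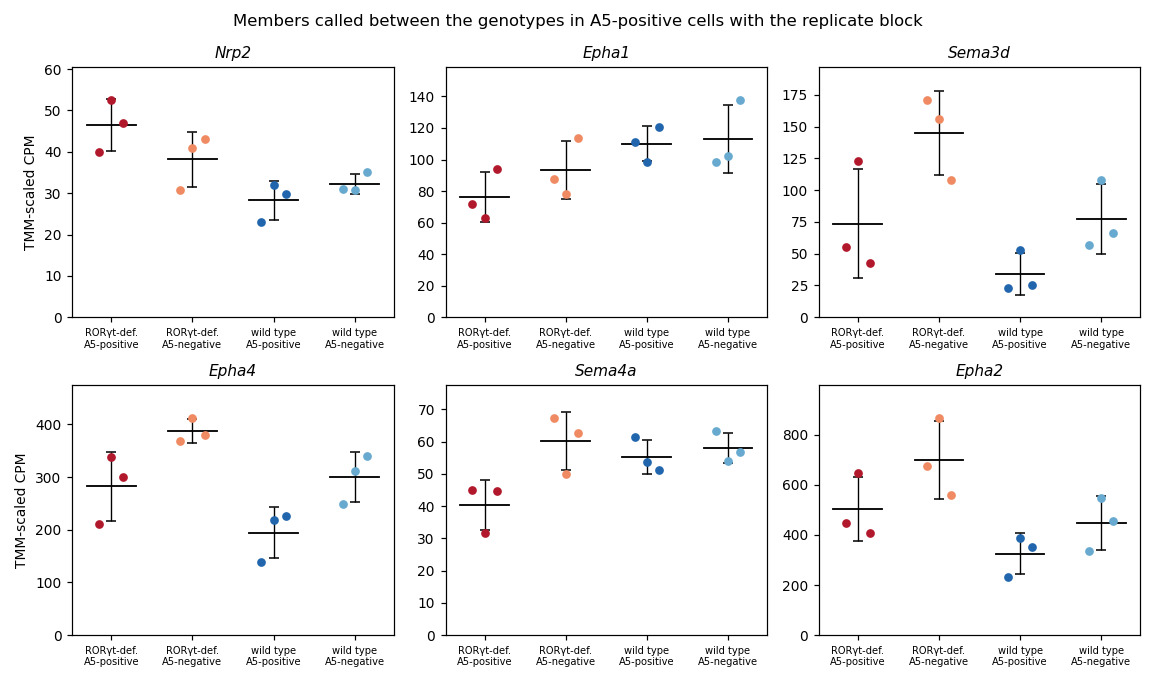
TMM-scaled CPM in each library of the 4 groups (points, in order of library number) with the group mean and SD (black), for the 6 genes called between the genotypes in A5-positive cells with the block. Nrp2 lies between 40.0 and 52.5 CPM in RORγt-deficient and between 23.1 and 32.0 CPM in wild-type A5-positive cells, while its A5-negative libraries overlap.

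Among A5-negative cells 0 of 54 genes passed between the genotypes, without or with the block, in edgeR's quasi-likelihood test, beside 0.006% of all genes in each fit, and 0 passed in DESeq2. An unadjusted p under 0.05 was reached by 7 genes, or 12.96% beside 5.09% of all genes. Named after their values were seen, they were Plxna3, Robo2, Flrt2, Epha2, Sema6c, Plxnd1 and Sema3d. Epha2 had 675, 867 and 559 CPM in RORγt-deficient against 335, 549 and 456 CPM in wild-type A5-negative cells, with no overlap and a log2 fold change of 0.65 ± 0.26 (adjusted p = 0.779, 0.157 with the block). The levels did not overlap for 9 genes, 6 higher and 3 lower in RORγt-deficient mice, beside 7.33% and 8.26% of all genes, or in all 16.7% beside 15.6%. The median log2 fold change was 0.09, beside 0.00 for all genes. Of the other genes followed in every comparison, Ntn1 and Sema3a averaged 0.626 ± 0.0352 and 0.715 ± 0.353 CPM in RORγt-deficient against 0.462 ± 0.268 and 0.412 ± 0.127 CPM in wild-type A5-negative cells. Efna1, Efnb1, Ephb4, Sema4d, Plxnb2 and Nrp1 had log2 fold changes of -0.20 ± 0.12, -0.20 ± 0.14, 0.12 ± 0.15, 0.20 ± 0.14, -0.00 ± 0.14 and -0.17 ± 0.44, and the smallest adjusted p among all 54 genes was 0.779.

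The difference between the A5 effects of the genotypes, taken as RORγt-deficient minus wild type, passed for 0 of 54 genes without or with the block, in edgeR's quasi-likelihood test and in DESeq2, beside 0% of all genes tested. This difference uses the same 12 libraries as the other comparisons. An unadjusted p under 0.05 was reached by 7 genes, or 12.96% beside 2.75% of all genes, which were, named after their values were seen, Sema3f, Plxnb2, Ephb4, Sema3b, Sema4d, Plxna3 and Sema4a. Plxnb2, Ephb4 and Sema4d stood at -0.46 ± 0.19, -0.49 ± 0.21 and -0.43 ± 0.19 on the log2 scale (edgeR quasi-likelihood, adjusted p = 0.9999 for each). Ntn1 and Sema3a stood at 0.80 ± 0.56 and 0.43 ± 0.63, and Epha2, Efna1, Efnb1 and Nrp1 at -0.02 ± 0.36, 0.21 ± 0.17, 0.05 ± 0.20 and 0.12 ± 0.62. An A5 effect that passed in a single genotype, such as that of Plxna3 or Slit1, was therefore not shown to differ between the genotypes.

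Genes that act with these cues were followed as a list of 88, of which 84 were tested. It held co-receptors and further ligands, enzymes that cut ligands or receptors, and cytoplasmic effectors. Dcc, the netrin receptor of neurons, and Timd2, a receptor of Sema4a in mice, were at 0 in all libraries, whereas the netrin receptor gene Neo1, which encodes neogenin, had 61.6 to 95.6 CPM. In RORγt-deficient mice 3 list genes passed without the block, Draxin and Mmp14 higher and Tiam1 lower in A5-positive cells, and in wild-type mice 5 passed, Draxin, Mmp14, Dpysl4, Enah and Limk1, all higher. Of all genes tested, 5.52% passed in RORγt-deficient and 3.45% in wild-type mice. The median log2 fold change of the list was -0.10 in RORγt-deficient and -0.02 in wild-type mice.

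Mmp14, a membrane-anchored protease, had 550, 421 and 560 CPM in RORγt-deficient A5-positive against 207, 156 and 147 CPM in RORγt-deficient A5-negative cells, and 307, 394 and 388 CPM in wild-type A5-positive against 172, 173 and 117 CPM in wild-type A5-negative cells. The fractions were well apart in both genotypes, with log2 fold changes of 1.58 ± 0.20 and 1.24 ± 0.20 (edgeR quasi-likelihood, adjusted p = 0.000602 and 0.00606). Draxin, a netrin antagonist, had 25, 76 and 48 counts in RORγt-deficient A5-positive against 1, 6 and 2 counts in RORγt-deficient A5-negative cells, and 83, 10 and 77 counts in wild-type A5-positive against 1, 0 and 0 counts in wild-type A5-negative cells. Tiam1, an activator of the GTPase Rac, had 98.8, 121 and 92.7 CPM in RORγt-deficient A5-positive against 183, 165 and 174 CPM in RORγt-deficient A5-negative cells (log2 fold change -0.74 ± 0.15, adjusted p = 0.0118). With the block 16 list genes passed in RORγt-deficient mice, 9 higher and 7 lower, and 12 in wild-type mice, 5 higher and 7 lower, near the 17.6% and 14.4% of all genes called with the block. Between the genotypes 0 list genes passed without the block in either fraction, beside 0.006% of all genes in each. With the block 6 passed in A5-positive cells, Rnd1, Abl2 and Rock2 higher and Vav3, Arhgef11 and Limk2 lower in RORγt-deficient mice, and 0 in A5-negative cells. Of all genes, 4.02% passed with the block in A5-positive and 0.006% in A5-negative cells.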

How the data were processed

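RNA of sorted epithelial cells was sequenced in 12 libraries, 3 in each of 4 groups, amplified by SMART-Seq v4 and built with ThruPLEX, per the labels. Tools named in the submitters' processing notes are STAR, featureCounts, Trimmomatic 0.36 and bcl2fastq, with the build GRCm38 (mm10). Not given in the sources used here were the annotation, the strand setting and the handling of reads with several matches. The values that the authors deposited are counts of reads for each gene symbol, whole and not normalized.

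The table had 55341 rows. Of these, 26 rows whose symbols had become dates held 0.11% to 0.128% of the counts of a library and were left out. Positions and exon lengths came from GENCODE M21 and promoter windows from RefSeq. Counts were fitted with edgeR 4.0.16 in R 4.3.3 (TMM factors, filterByExpr by group, 1 model of the 4 groups, quasi-likelihood F test), with Benjamini-Hochberg adjustment over all 16677 genes tested in each comparison, with a threshold of 0.05. The standard error is the log2 fold change divided by the root of F, and levels are TMM-scaled CPM. The fits were tested on simulated data. The level of the targeted gene is not reported here. Each p-value rests on how pools of mice differ within a group. With the block it rests on what is left of these differences after the library number is fitted.

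Deviations from the group means over 7424 genes correlated at 0.167 to 0.756 in the 18 pairs that share a number in the titles, and at a median of -0.27 for the 36 other pairs. By this measure the libraries are paired by number, and a fit blocked on the number is reported wherever it changes a call. Alternatives were DESeq2 1.42.0, RLE size factors, other filters, the 6 compared libraries alone, other thresholds of the gene rule and leaving out each library. A library was left out only in the comparisons that use its group.

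Genes are named with values in a comparison when they passed without or with the block, and Efna1, Efnb1, Epha2, Ephb4, Sema3a, Sema4d, Plxnb2, Nrp1 and Ntn1 in every comparison. The members, the lists and the rule for naming genes were chosen with earlier results of these data known.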

Additional observations from a re-analysis of the deposited data

How the results depend on the processing

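The numbers of guidance genes called changed with the replicate block, the tool and the libraries used. Between the fractions of RORγt-deficient mice 6 genes were called, 18 with the replicate block, 10 with DESeq2 and 4 to 8 when a library was left out, and with the block 7 to 17 when a library was left out. In wild-type mice 5 genes were called, 13 with the replicate block, 11 with DESeq2, 2 with only the 6 compared libraries and 2 to 7 when a library was left out, and with the block 6 to 14. Between the genotypes in A5-positive cells 0 genes were called, 6 with the replicate block, 4 with DESeq2 and 0 in every fit without the block that left out a library, and with the block 0 to 6. The other counts stayed at 0 in A5-negative cells and for the difference between the A5 effects, under every alternative run. RLE size factors, no filter and a filter at 5 CPM, which kept 44 of the 54 genes, left every count within 1.5 times. Thresholds of 0.5 and 5 CPM in the gene rule gave 60 and 44 members.

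Signs turned only for genes that did not pass. The cause was not tested. Epha2 in the difference between the A5 effects stood at -0.02, at 0.0115 with RLE size factors and with DESeq2, at 0.0186 with the stricter filter, and at -0.23 to 0.19 over the libraries left out. Plxnb2 between the genotypes in A5-negative cells stood at -0.00, at 0.0018 with the replicate block, at 0.0016 with the stricter filter and at -0.0975 to 0.0690 over the libraries left out. Efna1 between the genotypes in A5-positive cells stood at 0.00, at -0.00995 without a filter and at -0.0614 to 0.0656 over the libraries left out. Leaving out a library also turned Efna1 between the fractions in RORγt-deficient mice (-0.0489 to 0.126), Efnb1 between the fractions in RORγt-deficient and wild-type mice (-0.0668 to 0.221 and -0.000119 to 0.0812) and in the difference between them (-0.13 to 0.21). It likewise turned Nrp1 between the fractions in wild-type mice (-0.0515 to 1.06), between the genotypes in A5-positive and A5-negative cells (-0.112 to 0.0848 and -0.56 to 0.62) and in the difference between the A5 effects (-0.67 to 0.53).

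Counts were low in single libraries for some genes, with as few as 4 for Sema6b, 7 for Ntn1, 9 for Plxna4, 11 for Sema3a and 14 for Sema3b, those of Ntn1, Sema3a and Sema3b in A5-negative cells.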

Other observations

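Plxnc1, the plexin that binds Sema7a and is known from myeloid cells, was uneven within the A5-negative groups. It had 5.66, 1.03 and 4.86 CPM in RORγt-deficient A5-negative and 10.2, 0.989 and 1.94 CPM in wild-type A5-negative cells, and 0.751 to 3.26 CPM in the A5-positive cells of both genotypes. The 8 macrophage markers summed to 427, 64.8 and 416 CPM in RORγt-deficient A5-negative and to 1006, 65.0 and 206 CPM in wild-type A5-negative cells, although CD45+ cells had been excluded by the sort. The 5 markers of Langerhans and dendritic cells summed to 923, 237 and 965 CPM and to 2955, 256 and 634 CPM in the same libraries. Nrp1, known from dendritic and endothelial cells as well, had 14.0 CPM in wild-type A5-negative library 1 and 4.21 and 4.63 CPM in libraries 2 and 3. The 8 endothelial markers summed to 27.5, 8.36 and 5.11 CPM in these libraries, although CD31+ cells had been excluded by the sort. In wild-type A5-positive libraries 1, 2 and 3 these markers summed to 66.6, 8.88 and 8.19 CPM. Nrp1 had 10.36, 8.465 and 8.851 CPM there. The part of macrophages, Langerhans and dendritic cells and endothelial cells in the levels of Plxnc1 and Nrp1 was not tested.

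Several guidance genes followed the library number in all 4 groups, as did deviations over 7424 genes of the whole table. The share of all genes highest in the same number in every group was not counted, so this is no trait shown for guidance genes. Efna5, Epha2, Flrt2, Plxna2, Sema3c and Sema3e were highest in library 2 of every group, Efnb1, Efnb2, Epha1, Ephb2 and Sema6a in library 3, and Efna2, Ntn4 and Sema4a in library 1. Sema3c, a secreted semaphorin, reached 530 CPM in library 2 of RORγt-deficient A5-positive cells, against 237 and 195 CPM in libraries 1 and 3 of that group. What the number stands for is not given in the labels.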
